A study of Mus musculus with 6 samples.

Results

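Pericytes of the mouse sciatic nerve were examined in newborn mice at postnatal day 1 (P1) and in adult mice at postnatal day 60 (P60), among single cells of 6 droplet libraries, 3 per age. Pericytes were chosen by raw counts: a cell with 500 to 5000 detected genes that held at least 3 unique molecular identifiers (UMIs, each standing for 1 captured RNA molecule) of Rgs5, Kcnj8 and Abcc9 together and at least 1 of Pdgfrb. It had at most 1 UMI of the smooth muscle genes Myh11 and Pln together, at most 1 of the endothelial genes Pecam1 and Cldn5 together, no UMI of the leukocyte gene Ptprc or the Schwann cell gene Sox10, and fewer than 10 UMIs of the fibroblast gene Dcn. This left 604 pericytes of 24337 cells, 406 of 11735 at P1 and 198 of 12602 at P60. The libraries of P1 replicates 1, 2 and 3 held 112, 139 and 155 pericytes and those of P60 held 54, 80 and 64. Vascular smooth muscle cells, with at least 2 UMIs of Myh11 and 10 of Acta2, served as the other mural class, with 130 cells at P1 and 582 at P60. Unlike pericytes, they had no limit on endothelial, leukocyte, Schwann cell or fibroblast genes. The mice of both ages were P0Cre-/+ : ReYFP Tg/+ : βAct-DsRed Tg/+ on the C57bl/6J background. In them a Schwann cell promoter drives Cre and thereby a yellow reporter in Schwann cells, and a red fluorescent protein is made in all cells. Red cells were sorted, part of the Schwann cells was removed at P1, and each suspension pooled nerves of male and female mice, so no library is 1 animal. No allele marked pericytes, and the mice were not perfused before the nerves were taken.

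Pericytes sit on the outer wall of capillaries and small venules, inside the basement membrane that they share with the endothelium. During vessel growth they are recruited by endothelial PDGF-B, which acts on the receptor Pdgfrb, and Notch3 signalling maintains them together with smooth muscle cells. They carry an ATP-sensitive potassium channel built of a pore subunit (Kcnj8) and a sulfonylurea receptor (Abcc9), and abundant Rgs5, which shortens signalling by G protein-coupled receptors of vasoactive hormones. In the nerve they belong to the vessels of the endoneurium, whose walls form the blood-nerve barrier, and of the connective tissue around it.

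The summed pericytes of the P1 libraries held 565086, 617219 and 727868 UMIs, and those of the P60 libraries 180799, 245430 and 206080, so single genes were measured less precisely at P60. The median pericyte held 4852.5, 4182 and 4468 UMIs at P1 and 3034.5, 2932.5 and 3223.5 at P60. Across genes, which are not independent replicates, summed log2 levels correlated with a Pearson r of 0.965 to 0.971 between P1 libraries, 0.842 to 0.898 between P60 libraries and 0.745 to 0.810 between ages. The 3 lowest were those of P60 replicate 3 with the P1 libraries. Pairs of libraries shared 13 to 32 cell barcodes. No batch is given in the labels, so an effect of batch cannot be told apart from one of age.

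The genes that chose the cells are given first, as a description without a test. Levels are UMIs per 1e6 UMIs of the pericytes of a library (CPM). Rgs5 stood at 3594, 3321 and 3393 CPM in the P1 libraries and at 4071, 4168 and 5949 CPM at P60. The pore gene Kcnj8 was at 1209, 1129 and 1193 CPM at P1 and 1327, 1145 and 723 CPM at P60, and its partner Abcc9 at 253, 254 and 291 and 288, 192 and 330.0 CPM. For Pdgfrb the values were 623, 679 and 629 CPM at P1 and 885, 790.4 and 1029 CPM at P60. All 4 were present at both ages at levels far above those of smooth muscle cells. There Rgs5 averaged 1274 and 1303 CPM, Kcnj8 188 and 86.5, Abcc9 61.7 and 23.8, and Pdgfrb 155 and 252 at P1 and P60. Since these genes chose the pericytes, this contrast was built in. Cells just inside the limit on the summed Rgs5, Kcnj8 and Abcc9 (3 UMIs) numbered 2 at P1 and 4 at P60, and those just outside (2 UMIs, with all other limits met) 12 and 5. The cells with 3 UMIs held 0 Higd1b UMIs at P1 and 12 at P60, and those with 2 UMIs held 2 and 6.

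The label was checked against pericyte markers that the choice of cells did not use. Higd1b, a mitochondrial protein of the hypoxia-inducible domain family, was at 749, 851 and 719.9 CPM in pericytes at P1 and 1466, 1349 and 1135 CPM at P60, against 0.975 and 7.75 CPM in endothelial cells. After thinning each cell to 1500 UMIs, 56.4% of P1 and 74.2% of P60 pericytes kept a Higd1b UMI (mean of 3 libraries each), 0% and 1.49% of endothelial cells and 7.52% and 25.2% of smooth muscle cells; at full depth the endothelial shares were 0.726% and 3.87%. Vtn, which encodes vitronectin, was found in 67.6% and 66.1% of thinned pericytes and in 0.726% and 2.27% of endothelial cells. In smooth muscle cells its shares were 16.8% and 18.3%. Notch3, Ndufa4l2, Cox4i2 and Cspg4 did not clearly separate thinned pericytes from smooth muscle cells at both ages. Notch3 was in 28.2% of pericytes against 31.4% at P1 and 54.9% against 42.3% at P60. For Ndufa4l2 these shares were 80.2%, 74.7%, 76.1% and 59.8%, and for Cox4i2 48.3%, 14.8%, 37.4% and 35.4%. Cspg4 was in 12.8% against 17.2% at P60 and was more frequent in pericytes at P1. Of the 12 further pericyte markers, 11 were tested between the ages; Atp13a5, a transporter typical of brain pericytes, had 0 UMIs in the pericytes of every library, which at this depth allows up to 3 UMIs in all. The mean level of Vtn was 1038 ± 105 CPM (SD, n = 3 libraries) at P1 and 1045 ± 197 CPM at P60, and that of Ndufa4l2, a mitochondrial protein of mural cells, 1433 ± 51.6 and 1201 ± 267 CPM. Cspg4 (NG2) was at 75.8 and 90.3 CPM, Anpep (CD13) at 47.8 and 53.6 CPM, and Mcam (CD146) at 204 and 119 CPM, none of them called between the ages.

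The 2 channel genes lie next to each other. Kcnj8 (chr6:142564837-142571614 of GRCm38, GENCODE M21, minus strand) is followed after 16247 bases by Abcc9 (chr6:142587862-142702315, minus strand; 5330439B14Rik overlaps on the other strand). The windows from 250 bases before to 50 bases after their start sites are shown because these genes define the class, and those of Myl9, a myosin light chain, and Fbxl22, an F-box protein, because they were the genes with a CArG box in the contractile list and among the genes highest in smooth muscle cells. Both are exceptions within their sets by this count of letters. The windows are RefSeq sequences of build GRCm38.p6, written 5′ to 3′ on the strand of the gene. Capitals mark the letters TGGGAA on either strand (the core of sites bound by RBPJ, the DNA-binding partner of Notch) and CArG boxes (the sites of serum response factor). Only boxes of CC, then A or T alone, then GG were marked and counted. A window without such a match may still hold a variant of the site with a substituted base.
Kcnj8 (chr6:142571565-142571864, minus strand): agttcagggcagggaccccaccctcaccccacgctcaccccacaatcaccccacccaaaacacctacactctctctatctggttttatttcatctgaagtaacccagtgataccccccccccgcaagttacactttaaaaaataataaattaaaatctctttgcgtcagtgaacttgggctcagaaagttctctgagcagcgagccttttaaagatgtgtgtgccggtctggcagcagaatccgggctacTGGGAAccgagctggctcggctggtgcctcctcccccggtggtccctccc
Abcc9 (chr6:142702225-142702524, minus strand): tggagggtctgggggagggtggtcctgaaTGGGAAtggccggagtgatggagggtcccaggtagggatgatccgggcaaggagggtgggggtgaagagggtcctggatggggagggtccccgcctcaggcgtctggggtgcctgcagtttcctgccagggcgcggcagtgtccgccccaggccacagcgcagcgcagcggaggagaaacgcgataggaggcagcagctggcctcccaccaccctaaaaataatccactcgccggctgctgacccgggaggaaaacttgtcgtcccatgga
Myl9 (chr2:156775214-156775513, plus strand): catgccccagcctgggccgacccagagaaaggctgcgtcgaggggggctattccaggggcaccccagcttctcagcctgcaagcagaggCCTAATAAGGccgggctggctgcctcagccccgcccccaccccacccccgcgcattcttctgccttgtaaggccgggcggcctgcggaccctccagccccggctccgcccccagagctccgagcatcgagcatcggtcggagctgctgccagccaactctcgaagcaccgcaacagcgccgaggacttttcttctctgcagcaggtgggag
Fbxl22 (chr9:66514544-66514843, minus strand): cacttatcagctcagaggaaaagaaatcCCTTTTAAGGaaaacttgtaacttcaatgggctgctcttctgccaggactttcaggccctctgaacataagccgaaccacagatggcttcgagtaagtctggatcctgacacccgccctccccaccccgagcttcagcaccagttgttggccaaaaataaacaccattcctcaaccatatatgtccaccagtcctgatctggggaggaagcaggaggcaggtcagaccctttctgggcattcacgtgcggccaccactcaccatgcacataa
Both channel genes held TGGGAA in this window, as did 28.3% of the 27025 genes with an entry and 4 of the 11 matched pericyte markers (of 17). Neither held a CArG box, which 1.81% of all genes, 0 of these 11 pericyte markers 1 of 16 matched smooth muscle contractile genes (of 20) and 1 of 9 matched genes of the 12 highest in smooth muscle cells held. Of the 12 genes highest in pericytes against smooth muscle cells, described next, 6 of 9 matched held TGGGAA and 0 a CArG box, and of those highest in smooth muscle cells 3 of 9 held TGGGAA. The motifs may share letters where they adjoin, and a match is a description of letters, not of binding.

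Pericytes and smooth muscle cells, which line different stretches of the vascular tree, were then set side by side as a description, since the choice of cells fixes this contrast. Beside the genes that chose the cells, 316 genes with at least 100 CPM in pericytes at both ages were higher in pericytes in all 6 libraries, and 163 genes with at least 100 CPM in smooth muscle cells were higher there. Highest on the pericyte side by the log2 ratio of (CPM + 10) was Steap4, a metalloreductase, with 407, 322 and 341 CPM at P1 and 863, 607 and 674 CPM at P60 in pericytes and means of 32.2 and 79.1 CPM in smooth muscle cells. Next came Ntm, a cell adhesion molecule of the immunoglobulin superfamily (233 and 177 CPM in pericytes, 31.4 and 8.86 in smooth muscle), Higd1b, Vtn and Olfml3, a secreted olfactomedin-like protein. The angiotensin II receptor gene Agtr1a was at 246 and 427 CPM in pericytes and 41.9 and 51.2 CPM in smooth muscle cells. G0s2, an inhibitor of triglyceride lipase, Ifitm1, an interferon-induced membrane protein, the septin gene Sept4, the semaphorin and VEGF co-receptor Nrp1, the phospholipid transfer protein gene Pltp and Vstm4 completed the 12 on this side, with log2 ratios of 1.74 to 2.92 at P1 and 1.90 to 3.19 at P60.

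On the smooth muscle side stood contractile and elastic fibre genes. Cnn1 (calponin) was at 0, 14.6 and 2.75 CPM in P1 pericytes and 0, 0 and 4.85 CPM in P60 pericytes, against means of 461 and 270.3 CPM in smooth muscle cells. The elastin gene Eln was at 48.0 and 67.8 CPM in pericytes and 1443 and 303 CPM in smooth muscle cells. For Tagln, an actin-binding protein of smooth muscle, the pericyte values were 313, 387 and 376 CPM at P1 and 819, 969.7 and 1223 CPM at P60, and the smooth muscle means 7665 and 6995 CPM. The P60 pericytes lay above all P1 pericytes in Tagln and below all smooth muscle libraries. Endothelial cells and fibroblasts, which were neither defined nor limited by this gene, held 56.0 and 41.6 CPM of Tagln at P1 and 678 and 779.7 CPM at P60. Fbxl22, Ramp1 (part of the receptor of calcitonin gene-related peptide), Lmod1 (leiomodin), Palld, Mustn1, the potassium channel subunit gene Kcnab1, Tpm2 (tropomyosin), Sncg and Nrip2 were the others, with log2 ratios of -4.54 to -2.45 at P1 and -3.89 to -1.48 at P60.

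**Figure D1:**
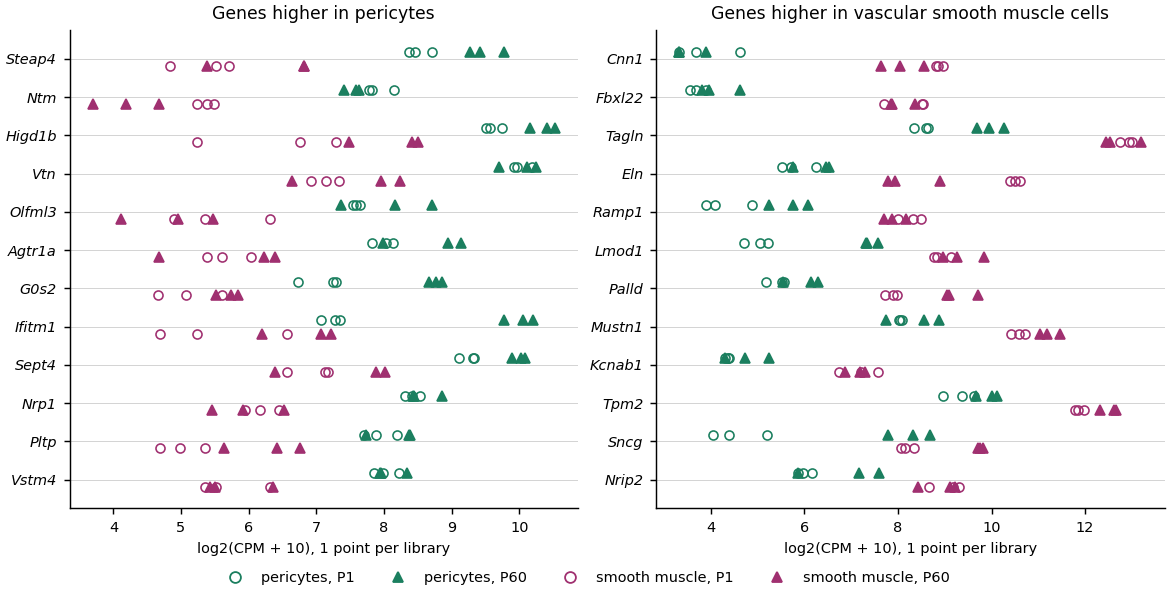
Levels of the 12 genes highest in pericytes (left) and the 12 highest in vascular smooth muscle cells (right) by mean log2 ratio, as log2(CPM + 10) on the horizontal axis. Each point is 1 library, green for pericytes and purple for smooth muscle cells, open circles for P1 and filled triangles for P60. In every library the pericyte point lies on the side of its panel's title, and the right panel shows Tagln, Lmod1 and Sncg of pericytes further right at P60 than at P1.

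Pericytes were not uniform in their smooth muscle actin. Acta2 was at 0 UMIs in 199 of 406 P1 pericytes (49.0%) and in 57 of 198 P60 pericytes (28.8%), and at 10 UMIs or more in 80 (19.7%) and 54 (27.3%). By library, the share at 0 was 51.8%, 49.6% and 46.5% at P1 and 29.6%, 31.3% and 25% at P60, with no overlap although the P60 cells were shallower. The tenth of pericytes richest in Acta2 held 59.2%, 64.6% and 61.8% of the Acta2 UMIs at P1 and 49.4%, 41.7% and 35.7% at P60. The tenth richest in Rgs5 held 20.0% to 29.5% of the Rgs5 UMIs. Rgs5 was used to choose the cells, so its spread and its correlation with Acta2 are descriptions only and no reference for Acta2. Over single cells thinned to 1500 UMIs, Spearman's rho between Rgs5 and Acta2 was 0.0278 to 0.181 in the P1 libraries and 0.226 to 0.452 in the P60 libraries, where cells share a library and the counts are sparse. Thinned endothelial cells, chosen without a limit on Acta2, held an Acta2 UMI in 1.18% of cells at P1 and 27.8% at P60. In pericytes these shares were 36.0% and 63.7%. Acta2 UMIs were thus also more frequent at P60 in cells not known for this gene. The part of such RNA in the pericyte values was not tested.

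Pericytes made up a smaller part of the cells at P60 under these limits. They were 4.16%, 4.18% and 4.90% of the cells without a Sox10 UMI in the P1 libraries and 1.61%, 1.79% and 1.44% in the P60 libraries, or 4.41% ± 0.423 and 1.61% ± 0.175 (SD, n = 3 libraries each). Per 100 endothelial cells (at least 3 UMIs of Pecam1 and Cldn5 together, none of Pdgfrb, Ptprc or Sox10, and fewer than 10 of Dcn) there were 64.4, 57.7 and 72.4 pericytes at P1 and 13.8, 14.3 and 10.6 at P60. The ages did not overlap in either measure, and the exact permutation test gave a two-sided p = 0.1 for both, the smallest that 3 against 3 libraries allow. With the Pecam1 and Cldn5 limit lifted, a choice made after seeing the data, the share was 4.52% ± 0.385 at P1 and 3.38% ± 0.752 at P60, and the ratio 66.4 ± 6.81 and 27.1 ± 7.20 per 100 endothelial cells. That limit alone removed 215 P60 and 10 P1 cells, and the limit on Myh11 and Pln alone 121 and 54. The limit on Dcn acted mainly on the other age, as it alone removed 32 P60 and 157 P1 cells. The need for a Pdgfrb UMI alone removed 32 P60 and 70 P1 cells, the limit on Sox10 2 and 23, and that on Ptprc 4 and 3. With every cell thinned to 1500 UMIs before the limits were applied, the share was 2.87% ± 0.141 at P1 and 1.66% ± 0.00709 at P60.

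**Figure D2:**
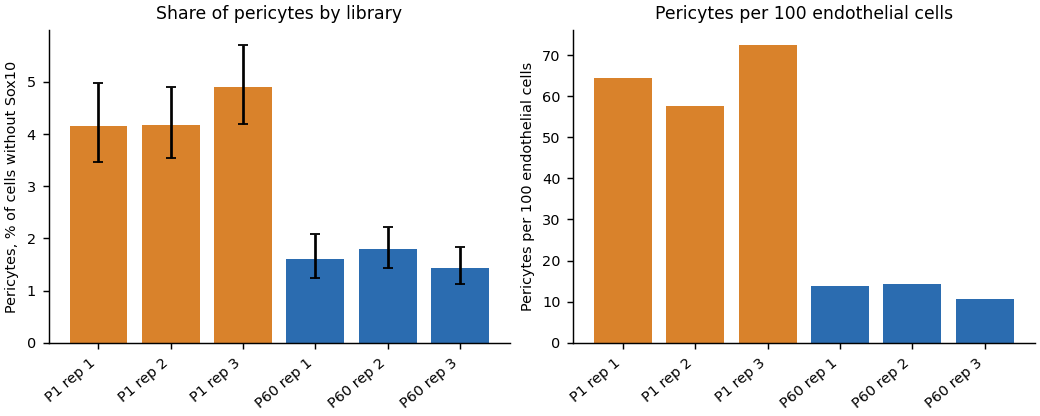
Pericytes as a percentage of cells without a Sox10 UMI (left, with 95% Wilson intervals that cover counting error only) and per 100 endothelial cells (right), 1 bar per library. The 3 P1 bars (4.16% to 4.90%) stand above the 3 P60 bars (1.44% to 1.79%), and on the right 57.7 to 72.4 stand above 10.6 to 14.3.

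Dividing pericytes were sought by UMIs of Mki67 or Top2a, which are made from S phase to mitosis. After thinning to 1500 UMIs such a UMI was found in 5 of 112, 11 of 139 and 12 of 155 pericytes at P1 (4.46%, 7.91% and 7.74%) and in 2 of 195 thinned pericytes at P60 (1.85%, 1.25% and 0% by library). The means were 6.71% ± 1.94 and 1.03% ± 0.945 (SD, n = 3 libraries each; two-sided exact permutation p = 0.1, the smallest possible), and without thinning 10.9% ± 2.54 and 1.03% ± 0.945. Over all cells of an age the thinned share was 6.90% at P1 (exact 95% interval 4.63% to 9.81%) and 1.03% at P60 (0.124% to 3.66%), intervals that cover counting error only. In endothelial cells the shares were 2.68% ± 1.73 at P1 and 0.717% ± 0.462 at P60, and in smooth muscle cells 6.67% ± 6.29 and 0.713% ± 0.0983. Among pericytes with at most 10% mitochondrial counts the P1 share was 4.91% ± 1.21.

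Gene levels of pericytes were next compared between the ages, by edgeR's quasi-likelihood test on the UMIs summed over the pericytes of each library, with Benjamini-Hochberg adjustment over all genes tested. Of 5574 genes tested, 1263 were called at an adjusted p under 0.05 (22.7%), 667 higher (12%) and 596 lower (10.7%) at P60. In 2115 of the 5574 (37.9%) the ages did not overlap. The suspensions were independent, so the p-values measure the spread between them. Genes are named below by fixed limits: called, no overlap between the ages, and at least 100 CPM at the higher age. These limits left 346 rises and 313 falls, of which the largest are described. Several of these genes belong to other cells, so the levels in other classes are given beside them.

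Ephx3 and H2-M9 were among the largest rises and were rare in the classes other than mural cells. Ephx3, an epoxide hydrolase (chr17:32183770-32189549, GRCm38), went from 0, 1.62 and 1.37 CPM (2 UMIs in all) in the P1 libraries to 243, 196 and 155 CPM (124 UMIs) at P60, a ratio of 187 with an exact counting interval of 50.8 to 1564 (adjusted p = 1.3e-08). Endothelial cells, fibroblasts, Schwann cells and immune cells held 0.653 to 2.79 CPM of Ephx3 at P60, and smooth muscle cells 72.5 CPM. H2-M9, a non-classical class I histocompatibility gene (chr17:36639285-36642666), rose from 1.77, 0 and 5.50 CPM to 77.4, 257 and 214 CPM (log2 fold change 6.0 ± 0.58, SE; adjusted p = 2e-06), with 21.5 CPM in P60 smooth muscle cells and 0 to 0.448 CPM in the other 4 classes. How reads shared by H2 genes of near-identical sequence were counted is not given, so this value is uncertain. Cyp4b1, a cytochrome P450 of fatty acid hydroxylation, rose from 14.2, 14.6 and 23.4 to 581, 509 and 339.7 CPM (4.69 ± 0.24, adjusted p = 4.9e-09), with 111 CPM in P60 endothelial cells.

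Secreted and extracellular proteins formed another part of the rises. Enpp2 (autotaxin, which makes lysophosphatidic acid; chr15:54838901-54952892, overlapped by Gm26684 on the other strand) rose from 3.54, 1.62 and 1.37 CPM to 254, 159 and 247 CPM (6.49 ± 0.40, adjusted p = 1.7e-08). Prelp, a small leucine-rich proteoglycan, rose from 4.17 ± 0.662 to 144 ± 27.7 CPM (4.99 ± 0.37), and Timp4, a metalloproteinase inhibitor, from 3.75 ± 3.77 to 116 ± 38.3 CPM (4.85 ± 0.48; adjusted p = 1.5e-07 and 3.1e-06). In P60 fibroblasts Prelp stood at 362 and Enpp2 at 106 CPM, so the pericyte level of Enpp2 was above, and that of Prelp below, the fibroblast level. Timp4 was at 120.0 CPM in P60 endothelial cells. Gm9780, a predicted gene, was at 5.31, 1.62 and 0 CPM at P1 and 55.3, 32.6 and 291 CPM at P60, highest in P60 replicate 3, with 116 CPM in P60 fibroblasts (5.70 ± 0.95, adjusted p = 0.00038; 4.11 without P60 replicate 3).

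The remaining rises were of genes typical of other cells. The surface antigens Ly6c1 and Ly6a and the endothelial diaphragm protein Plvap rose to 236 ± 70.8, 195 ± 45.2 and 138 ± 45.8 CPM, from 2.45 ± 2.17, 3.42 ± 2.99 and 2.31 ± 2.72 CPM (adjusted p = 6.7e-08, 1.1e-07 and 1.4e-06). In cells chosen without the Dcn limit the log2 fold changes of Ly6c1 and Ly6a were 2.67 and 0.91 in place of 6.35 and 5.61. In P60 endothelial cells they stood at 4135, 2409 and 584 CPM. The 10 endothelial markers summed to 375 to 421 CPM in P1 pericytes and 791 to 1194 CPM in P60 pericytes, against a mean of 14618 CPM in P60 endothelial cells, and none of the 10 was at 0. Retnla, a resistin-like protein of macrophages, had 0 UMIs in P1 pericytes and 166, 130.4 and 38.8 CPM at P60 (at least 70.5-fold higher, against a floor of 3 UMIs over the age), but also 107 to 158 CPM in every P60 class other than immune cells, where it reached 16779.8 CPM. The 8 immune markers summed to 26.5 to 58.3 CPM in P1 and 69.3 to 160 CPM in P60 pericytes, with Ptprc at 0 by choice and Cd68 also at 0 at P60. The part of endothelial and immune RNA in these rises was not tested.

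Among the falls, imprinted and developmental growth genes led. H19, an imprinted non-coding RNA, fell from 579, 517 and 633 CPM to 16.6, 12.2 and 0 CPM in pericytes (-5.91 ± 0.33, adjusted p = 7.4e-09), and Dlk1, a Notch-like membrane protein of growing tissues, from 1134, 761 and 1367 to 27.7, 48.9 and 67.9 CPM (-4.49 ± 0.29, adjusted p = 3.2e-08). Mir675 lies within H19 on the same strand. The angiotensin type 2 receptor gene Agtr2 (99.1, 95.6 and 129 CPM at P1), the fibrillin gene Fbn2 (93.8, 98.8 and 122 CPM) and the cortexin gene Ctxn1 (97.3, 104 and 102 CPM) were at 0 UMIs in all P60 pericytes, so that they were at least 23.1-, 22.4- and 21.3-fold lower (floor of 3 UMIs over the age). P1 fibroblasts held 556 CPM of Agtr2, 414 of Fbn2, 3148 of H19 and 7099.6 of Dlk1, above the pericyte levels, whereas Ctxn1 was at 21.1 CPM there.

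Fabp5, a fatty acid-binding protein, fell from 1520.1, 1508 and 1349 CPM to 111, 69.3 and 48.5 CPM (-4.31 ± 0.20, adjusted p = 4.8e-09) and was at 80.5 CPM in P1 fibroblasts. Plat, the tissue plasminogen activator (chr8:22757727-22782844), fell from 235, 237 and 256 CPM to 11.1, 24.4 and 14.6 CPM (-3.81 ± 0.27, adjusted p = 1.2e-07). Without the limit on Dcn this change was -1.57, and without that on Pecam1 and Cldn5 -1.86. The limit on Dcn also moved the changes of H19 (to -3.64) and Prelp (to 3.2). The tubulin gene Tubb2b, the heparin-binding growth factor Mdk (midkine) and the actin regulator Marcksl1 fell as well, from 110.1 ± 3.14, 127 ± 11.4 and 424 ± 51.0 CPM to 5.92 ± 6.12, 7.76 ± 6.75 and 28.1 ± 11.9 CPM (adjusted p = 6.9e-06, 4.5e-06 and 3.6e-08). Mbp, a myelin gene of Schwann cells, also fell, from 741, 77.8 and 153 CPM in P1 pericytes to 49.8, 16.3 and 14.6 CPM at P60 (-3.66 ± 0.92, adjusted p = 0.0094), with 1 P1 library above the others (-2.20 without P1 replicate 1). Endothelial cells and fibroblasts showed 136 and 117 CPM of Mbp at P1 and 15.7 and 13.9 CPM at P60. The 8 Schwann markers summed to 444 to 3539 CPM in P1 and 112 to 160 CPM in P60 pericytes, and the part of Schwann cell RNA was not tested.

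**Figure D3:**
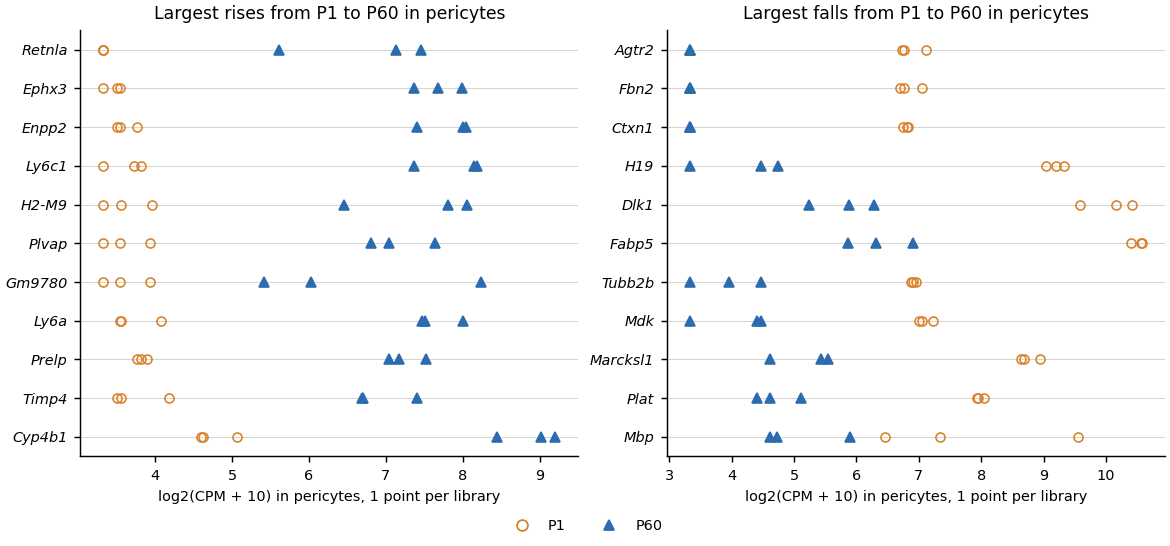
Largest rises (left) and falls (right) in pericytes from P1 to P60, 11 genes each, as log2(CPM + 10) on the horizontal axis, 1 point per library, open orange circles for P1 and filled blue triangles for P60. For each gene the 3 P60 points lie on 1 side of the 3 P1 points, as the limits require, and Mbp shows 1 P1 library far to the right of the others.

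Gene lists of pericyte functions were then counted in the same test. They were chosen with earlier results of these data known, and a list's count is to be read beside the 22.7% of all genes called. With the Pecam1 and Cldn5 limit lifted, an alternative chosen after seeing the data whose added P60 cells carried endothelial RNA (8 of 8 tested endothelial markers higher, median 3.37), several of these counts turned, as given beside their lists. Of the 22 genes of ATP-sensitive and other ion channels, 8 were tested beside the 2 that chose the cells; 3 were higher, 0 lower and 5 not called (median log2 fold change 0.84, against 0.00 over all genes). In cells chosen without the Pecam1 and Cldn5 limit, 3 of 10 were higher and 2 lower. The 3 rises with all limits in place were Kcnk3, a background potassium channel (23.01, 14.6 and 24.7 CPM at P1 and 88.5, 89.6 and 97.0 CPM at P60; 2.10 ± 0.30, adjusted p = 0.0001), the L-type calcium channel gene Cacna1c (9.35 to 32.1 CPM) and the calcium-activated chloride channel gene Ano1 (56.6 to 111 CPM). The cation channel gene Trpc6 (31.2 and 59.8 CPM) was not called, and the purinergic channel gene P2rx1 was at 0 UMIs in the pericytes of all libraries but at 69.9 and 45.8 CPM in smooth muscle cells.

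Of 43 receptor genes of vasoactive hormones and genes of the cGMP pathway, 23 were tested; 10 were higher and 3 lower at P60 (median 0.71). Without the limit on Pecam1 and Cldn5, 6 of 27 were higher and 9 lower (median -0.09), so that the balance turned. Ednrb, an endothelin receptor, rose from 47.8, 48.6 and 41.2 CPM to 249, 253 and 243 CPM (2.41 ± 0.19, adjusted p = 2.3e-07), while Ednra was at 113 ± 26.0 and 118 ± 12.6 CPM (SD, n = 3 each). The α2A adrenoceptor gene Adra2a rose from 58.4, 81.0 and 38.5 to 155, 89.6 and 311 CPM (1.62 ± 0.38, adjusted p = 0.006), the prostacyclin receptor gene Ptgir from 13.1 to 62.5, the parathyroid hormone receptor gene Pth1r from 57.5 to 139, and Agtr1a from 246 ± 27.2 to 427 ± 163 CPM (0.76 ± 0.21, adjusted p = 0.017). Of the cGMP pathway, Gucy1b3, a soluble guanylate cyclase subunit, rose (262 to 409.9 CPM), as did the cGMP phosphodiesterase gene Pde5a (53.6 to 132 CPM), and Gucy1a3 was not called (603 and 496 CPM). The 3 falls were P2ry14, a receptor of UDP-sugars (297, 350.0 and 337 to 83.0, 114 and 53.4 CPM; -1.97 ± 0.21, adjusted p = 6.9e-06), the sphingosine-1-phosphate receptor gene S1pr3 (103 to 25.9 CPM) and the adenosine receptor gene Adora2b (39.2 to 12.8 CPM).

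In the pathway that recruits pericytes, ligands and receptors of PDGF and Notch, 12 of 24 genes were tested, 5 were higher, 0 lower and 7 not called (median 0.65). With the Pecam1 and Cldn5 limit lifted, 9 of 18 were higher and 3 lower. Notch3 rose from 264, 237 and 239 CPM to 597, 416 and 659.9 CPM (1.15 ± 0.18, adjusted p = 0.00021), and its target Heyl from 244 ± 9.67 to 388 ± 55.6 CPM (0.64 ± 0.15, adjusted p = 0.0062). The other Notch target Hes1 (533 ± 82.2 and 864 ± 392 CPM) and the ligand Jag1 (74.9 and 122 CPM) were not called. Pdgfa, a ligand of the α receptor, rose from 154, 110.2 and 151 to 470.1, 575 and 514 CPM (1.89 ± 0.17, adjusted p = 1.3e-06), Pdgfd, a ligand of the β receptor, from 3.82 to 44.5 CPM, and the chemokine Cxcl12 from 219 to 549 CPM (1.32 ± 0.19, adjusted p = 0.00011). Pdgfb, which endothelial cells make, was at 3.96 and 13.5 CPM in pericytes and too low to be tested. Among 23 angiogenic and vessel maturation ligands 10 were tested, with 1 higher and 2 lower (4 and 2 of 12 without the limit on Pecam1 and Cldn5). Angpt1, which stabilises vessels through endothelial Tie2, rose from 10.6, 4.86 and 13.7 to 49.8, 36.7 and 82.5 CPM (2.43 ± 0.45, adjusted p = 0.00096). Tgfb2 fell from 95.2 to 27.7 CPM and Mdk as above, and 7 were not called, among them Angpt2 (90.6 and 125 CPM) (median 0.34).

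Of 20 contractile genes of smooth muscle, 2 had chosen the cells and 15 of the others were tested, with 9 higher, 1 lower and 5 not called (median 0.58). In cells chosen without the Pecam1 and Cldn5 limit this turned to 4 of 16 higher and 7 lower (median -0.25). Lmod1 rose from 23.01, 16.2 and 27.5 CPM to 149, 151 and 179.5 CPM (2.79 ± 0.26, adjusted p = 1.8e-06), Synpo2 (synaptopodin 2) from 13.7 ± 2.29 to 147 ± 35.8 CPM (3.36 ± 0.31, adjusted p = 1.5e-06) and Des (desmin) from 379, 353 and 382 to 835, 819 and 645 CPM (1.02 ± 0.14, adjusted p = 4.9e-05). Acta2 was at 1055, 1612 and 1272 CPM and 2799, 2249 and 1727 CPM (0.75 ± 0.17, adjusted p = 0.0039), and Tagln rose by 1.47 ± 0.17 on the log2 scale (adjusted p = 1.6e-05). Smtn (smoothelin) fell from 94.3 ± 12.4 to 44.3 ± 16.2 CPM (-1.16 ± 0.28, adjusted p = 0.0075), and Cald1 (caldesmon) and Myl9 were not called. The 20 genes summed to 7659 to 9227 CPM in P1 pericytes, 11602 to 13518 CPM in P60 pericytes and 1646 and 3715 CPM on average in P1 and P60 fibroblasts. The part of smooth muscle RNA in the pericyte values was not tested.

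Matrix genes fell more often than they rose. Of 28 basement membrane genes 17 were tested, with 2 higher, 6 lower and 9 not called (median -0.60). The type IV collagen gene Col4a1 fell from 1476, 1395 and 1506 CPM to 404, 517 and 708 CPM (-1.43 ± 0.18, adjusted p = 2.8e-05) and Col4a2 from 669, 596 and 664 to 359.5, 330.0 and 485 CPM (-0.74 ± 0.17, adjusted p = 0.0051), together with the laminin genes Lamb1 (177 to 62.6 CPM) and Lama4 (103 to 52.3 CPM), Nid2 and Col18a1. The laminin gene Lamb2 and the collagen-binding protein gene Sparc went the other way. Sparc rose from 5148, 5379 and 5212 to 9353, 8703 and 6124 CPM (0.59 ± 0.13, adjusted p = 0.0034) and Lamb2 from 50.9 to 115 CPM (1.13 ± 0.24, adjusted p = 0.0027). Of 34 interstitial and elastic matrix genes 26 were tested, with 3 higher, 10 lower and 13 not called (median -0.36). Col1a1 fell from 1313 ± 503 to 166 ± 38.9 CPM (-2.99 ± 0.26, adjusted p = 9.5e-07), Col1a2 and Col3a1 fell too, and the microfibril gene Mfap2 from 363 ± 28.8 to 41.7 ± 20.9 CPM (-3.16 ± 0.24, adjusted p = 2.3e-07). Fmod, Mfap5 and Prelp were the 3 rises. The 9 fibroblast markers, which include Col1a1 and Col3a1, summed to 2616 to 4520 CPM in P1 and 2858 to 3020 CPM in P60 pericytes. Of the 7 tested, 4 were higher (Gsn, Mfap5, Pi16 and Clec3b), Col1a1 and Col3a1 lower and Lum not called (median 1.79), and the part of fibroblast RNA in the pericyte values was not tested. Among 17 integrins 7 were tested, of which Itga1, Itga4, Itga6 and Itgav fell and none rose (median -0.75). Itga1, a collagen receptor subunit, went from 585 ± 45.3 to 353 ± 37.3 CPM (-0.75 ± 0.15, adjusted p = 0.0022).

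Of 32 transcription factor genes of mural cells 18 were tested, with 7 higher and 0 lower (median 0.54), against 5 of 20 higher and 5 lower without the limit on Pecam1 and Cldn5. Ebf1 rose from 1361, 1183 and 1271 to 1881, 2094 and 1815 CPM (0.58 ± 0.12, adjusted p = 0.0026), Epas1 (HIF-2α) from 103, 94.0 and 94.8 to 221, 293 and 480.4 CPM (1.76 ± 0.25, adjusted p = 8.6e-05), and Prrx1, Meox2, Nr2f2, Heyl and Nfix were the others. Tbx18 (32.3 and 50 CPM), Foxs1 (104 and 97.0 CPM) and Mef2c (487 and 362 CPM) were not called, and Foxf2, known from brain pericytes, was at 0.998 and 4.59 CPM and too low to be tested. Of 17 solute carriers known from brain pericytes only 5 were high enough to be tested, and Slc7a2, a transporter of cationic amino acids (177, 235 and 166 to 603, 342 and 738 CPM; 1.51 ± 0.24, adjusted p = 0.00026), and Slco3a1 (43.4 to 200.4 CPM) rose (median 0.74). Slc6a20a was at 0 UMIs in pericytes of both ages, and Slc6a12, Slc6a13 and Slc22a8 at 0 at one of them and at most 2.59 CPM at the other.

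None of the tested cell cycle and imprinted growth genes was higher at P60. Of 26 cell cycle genes 22 were tested, with 0 higher, 8 lower and 14 not called (median -1.22). Stmn1 (stathmin) fell from 290.2, 311 and 404 to 149, 24.4 and 4.85 CPM (-2.65 ± 0.44, adjusted p = 0.00035) and the replication factor gene Pclaf from 76.8 CPM (150 UMIs) to 1.84 CPM (1 UMI), a ratio of 49.7 with an exact counting interval of 8.78 to 1974. Mki67 (26.5, 30.8 and 27.5 CPM at P1, 33.2, 0 and 0 CPM at P60) and Top2a (49.5, 59.9 and 63.2 and 122, 4.07 and 0 CPM) were not called, and P60 replicate 1 was the highest of all libraries in both. Only 1 of the 54 pericytes of P60 replicate 1 held a UMI of Mki67 or Top2a, so both values there came from 1 cell. Whether that cell also held the other cell cycle genes of this library was not tested. The count of lower genes depended on that library: it was 21 of 26 without P60 replicate 1 (median -4.31) and 4 to 7 without any other single library, with 0 higher in each. Without the limit on Pecam1 and Cldn5, 21 of 24 were lower and 1 higher. Of 15 imprinted growth genes 12 were tested and 10 were lower, 0 higher (median -1.82). Gnas, a G protein subunit, fell from 7041, 6772 and 6927 to 1582, 1524 and 1043 CPM (-2.35 ± 0.14, adjusted p = 1.1e-08), Meg3 from 4102 ± 762 to 1827 ± 388 CPM (-1.19 ± 0.16, adjusted p = 4.3e-05), and Mest from 80.5 CPM to 0 UMIs, at least 17.2-fold lower. Ndn and Sgce were the pair not called, and Igf2 (5.14 and 1.84 CPM) was too low to be tested.

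MHC class I genes present peptides to T cells. Of 13 genes 7 were tested, with 6 higher and 0 lower (median 2.06). H2-D1 rose from 28.3, 19.4 and 35.7 to 309.7, 367 and 364 CPM (3.59 ± 0.22, adjusted p = 1.8e-08), H2-K1 from 7.08, 12.96 and 10.99 to 160.4, 216 and 150.4 CPM (4.02 ± 0.30, adjusted p = 1.5e-07) and B2m, the shared light chain, from 472 ± 30.0 to 953 ± 79.9 CPM (0.99 ± 0.14, adjusted p = 7.4e-05). In smooth muscle cells 7 of 7 tested were higher, and in none of 9 tested did the age change differ between the classes. Of 17 genes of mitochondrial respiration and hypoxia 10 were tested, with 2 higher, 2 lower and 6 not called (median -0.20). Higd1b (0.74 ± 0.13, adjusted p = 0.00058) and Ndufa4 (106 to 168 CPM) rose, the respiratory chain subunit gene Cox4i2, a mural cell isoform, fell from 462, 493 and 507 to 315, 354 and 281 CPM (-0.64 ± 0.15, adjusted p = 0.0046), and the general isoform Cox4i1 fell from 1777 ± 92.8 to 994 ± 128 CPM (-0.86 ± 0.13, adjusted p = 0.00014). Of the 11 further pericyte markers tested, 3 were higher, among them Notch3 and the connexin gene Gja4 (280.5 to 488 CPM), P2ry14 and Cox4i2 were lower, and 6 were not called (median -0.02). With the Pecam1 and Cldn5 limit lifted, 0 of 11 were higher and 9 lower (median -1.28).

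Of the genes in all lists, 109 were called in pericytes, and the other choices of cells moved a part of these calls. In cells chosen without the Pecam1 and Cldn5 limit, 107 of them were tested, of which 79 stayed past the threshold in the same direction, 14 missed it and 14 changed sign. Acta2, Des, Agtr1a, Higd1b and Nr2f2 then had log2 fold changes of -0.25, -0.10, -0.09, -0.20 and -0.03 and were not called, and Gucy1b3 (-0.44), Heyl (-0.53) and Itga6 (0.81) were called in the opposite direction (adjusted p = 0.027, 0.034 and 0.0015). Notch3, Gja4, Ano1, Adra2a, Pde5a, Lama4, Sparc, Slc7a2, Ebf1, Prrx1 and Meox2 kept their sign and missed the threshold (adjusted p = 0.052 to 0.92). Without the limit on Dcn, 109 of them were tested, of which 94 stayed past the threshold in the same direction, 13 missed it and 2 changed sign. The one that turned and was called was Mfap5 (-0.77, adjusted p = 0.0071), and Col4a2, Lama4, Sparc, Cox4i2, Itga1, Itga4, Itga6, Itgav, Adora2b, Meox2, Nfix and Ndufa4 missed the threshold. Leaving out 1 library kept 80 to 98 of these calls, of 99 to 109 tested, and turned none. The calls of Col18a1, Nr2f2, Nfix and Ndufa4 were lost without P1 replicate 1 (adjusted p = 0.051 to 0.13). Without P1 replicate 2 those of Agtr1a, Nr2f2 and Ndufa4 were lost (adjusted p = 0.059 to 0.16). Without P1 replicate 3 those of Ano1, Agtr1a, Col18a1, Itgav and Nr2f2 were lost (adjusted p = 0.051 to 0.11). Without P60 replicate 1 those of Agtr1a, Itga4, Itgav and Ndufa4 were lost (adjusted p = 0.058 to 0.18). Without P60 replicate 2 those of Smtn, Ano1, Agtr1a, Adora2b, Col18a1, Itga4, Itga6, Itgav, Nr2f2, Meox2 and Nfix were lost (adjusted p = 0.053 to 0.22). Without P60 replicate 3 those of Ano1, Itga4, Nr2f2 and Ndufa4 were lost (adjusted p = 0.058 to 0.2).

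**Figure D4:**
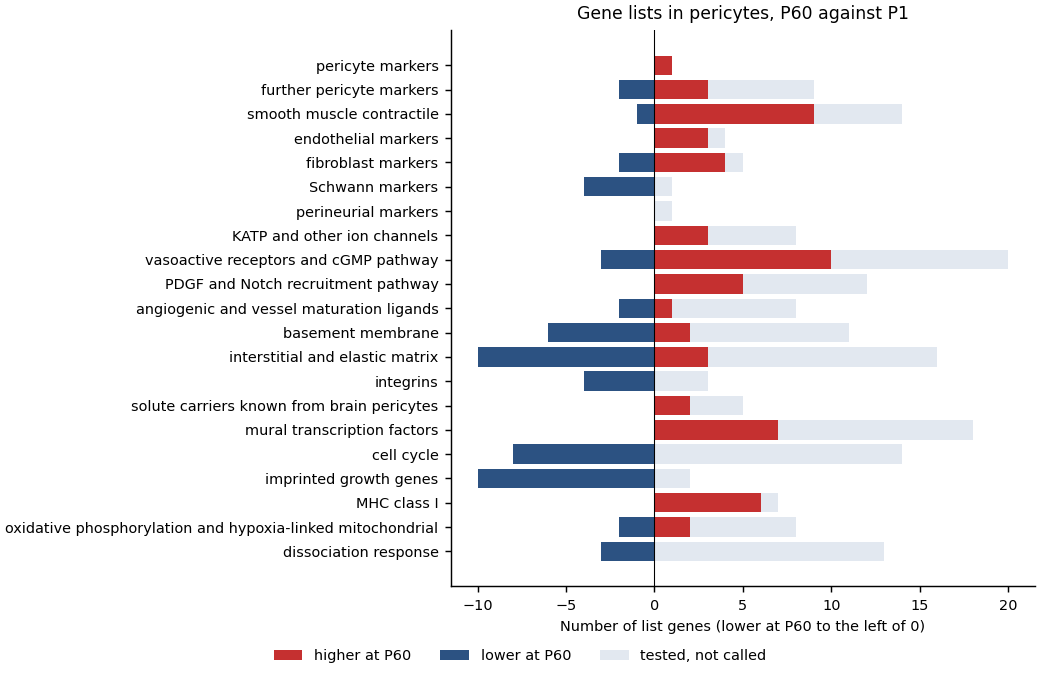
Number of genes of each list that were higher at P60 (red, right of 0), lower at P60 (blue, left of 0) or tested and not called (grey) in pericytes by edgeR's quasi-likelihood test. Imprinted growth genes (10 lower of 12) and cell cycle genes (8 lower of 22) have no red bar, and MHC class I genes (6 higher of 7) and mural transcription factors (7 higher of 18) have no blue bar.

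Whether pericytes changed otherwise than smooth muscle cells was tested as the interaction of cell class and age, with the library as a block, since each library gave both sums. In smooth muscle cells 1482 of 5795 genes were called between the ages (25.6%), 786 higher (13.6%) and 696 lower (12%). Of 5026 genes tested in both classes, 1144 were called in pericytes and 1227 in smooth muscle cells, and 660 in both (57.7% of the pericyte and 53.8% of the smooth muscle calls), 638 of them in the same direction. The 2 comparisons draw on the same libraries. The age change differed between the classes in 310 of 6923 genes (4.48%), more positive in pericytes in 124 (1.79%) and more negative in 186 (2.69%). With scaling by library size alone the split was 166 and 119, and the median difference over all genes moved from -0.03 to 0.13. With DESeq2 126 genes were called, and without P1 replicate 3 174. With the Pecam1 and Cldn5 limit lifted, 493 of 8448 were called, 177 of them among the 310. Genes of at least 100 CPM in 1 of the 4 groups are named, the 8 largest in each direction.

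Plat had the largest difference. It fell in pericytes as given above and stood at 11.9, 27.1 and 15.4 CPM at P1 and 40.9, 49.2 and 58.8 CPM at P60 in smooth muscle cells, a difference of -5.43 ± 0.45 (log2, SE; adjusted p = 1.2e-07). Pericytes were thus above smooth muscle cells in Plat at P1 and below them at P60. The difference was -3.46 without the limit on Pecam1 and Cldn5, where those of Pi15 and Stbd1, described below, were 1.96 and 1.64 (all called). Differences between the classes were not fitted without the limit on Dcn, which had moved the change of Plat in pericytes. In P60 endothelial cells and fibroblasts Plat was at 319 and 184 CPM. The transcription factor genes Foxc1 and Tcf15 rose in smooth muscle cells, while in pericytes Tcf15 fell and Foxc1 was not called. Foxc1 was at 49.5, 29.2 and 34.3 and 27.7, 8.15 and 24.3 CPM in pericytes and went from 7.93, 11.6 and 15.4 to 81.7, 66.1 and 165 CPM in smooth muscle cells (difference -4.21 ± 0.54, adjusted p = 2e-05), and Tcf15 from 64.7 ± 20.5 to 13.1 ± 10.3 CPM in pericytes and 80.4 ± 42.2 to 185 ± 48.8 CPM in smooth muscle cells (-3.68 ± 0.47, adjusted p = 1.7e-05). Sfrp5, an inhibitor of Wnt signalling, and Gpx3, a secreted glutathione peroxidase, rose in both classes but less in pericytes (-4.16 ± 1.03 and -3.47 ± 0.92, adjusted p = 0.019 and 0.029). The call of Sfrp5 was lost without P1 replicate 1 or 3 (adjusted p = 0.12 and 0.057), and that of Gpx3 without the same libraries (0.16 and 0.068) and with scaling by library size (0.056). P60 fibroblasts held 3429 and 908 CPM of them. Rasd1, Nr4a2 and Atf3, genes that respond to hormones and stress, made up the rest of this direction, with differences of -4.15, -3.88 and -3.85 (adjusted p = 1.4e-06, 0.00023 and 1.1e-06). In cells chosen without the Pecam1 and Cldn5 limit the differences of Tcf15 and Nr4a2 were -0.58 and -1.15 and missed the threshold (adjusted p = 0.47 and 0.33), as did that of Sfrp5 (0.13).

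Atf3 is also 1 of 17 listed genes that respond to dissociation. In pericytes 16 of 17 were tested, with 0 higher and 3 lower at P60 (median -0.31). In smooth muscle cells 8 of 16 were higher, and in 12 of 16 the age change differed, in each towards the more negative in pericytes (median difference -1.16). Without P60 replicate 3, 11 of 16 were lower in pericytes (median -0.84), and 13 of 16 differed, while without any other single library 1 or 2 were lower and at most 1 higher. Without the limit on Pecam1 and Cldn5 the pericyte count turned to 8 of 17 higher and 0 lower (median 0.50), and 5 of 17 differed, each again more negative in pericytes (median -0.27). The 17 genes summed to 8234, 9292 and 9252 CPM in the P1 pericytes and 5686, 5513 and 10156 CPM in the P60 pericytes, the last in P60 replicate 3. In smooth muscle cells the sums were 8684, 8622 and 9638 CPM at P1 and 14086, 11150 and 17960 CPM at P60. Thus all 3 P60 smooth muscle sums were above those of P1, and P60 pericytes of replicates 1 and 2 were below them. Atf3, for example, was at 84.9, 53.5 and 52.2 and 16.6, 32.6 and 53.4 CPM in pericytes and at 47.6, 50.3 and 89.2 and 317, 279.7 and 791 CPM in smooth muscle cells. The shares of cells with over 10% mitochondrial counts were 1.85% to 9.38% in P60 pericytes and 10.7% to 33.4% in P60 smooth muscle cells. With both classes held to at most 10% mitochondrial counts, no dissociation gene tested lost the call of its difference. The cause of these differences was not tested.

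In the other direction, Slc11a1, a transporter of divalent metals, rose from 8.85, 12.96 and 12.4 to 122, 134 and 112 CPM in pericytes and was at 87.4 ± 8.72 and 59.3 ± 15.4 CPM in smooth muscle cells (difference 3.82 ± 0.39, adjusted p = 1.1e-06). Pi15, a secreted peptidase inhibitor, rose from 7.08, 8.10 and 10.99 to 99.6, 89.6 and 169.8 CPM in pericytes, against 210.1 ± 51.5 and 212 ± 99.9 CPM in smooth muscle cells (3.56 ± 0.35, adjusted p = 8.4e-07). Id4, an inhibitor of basic helix-loop-helix factors, rose in pericytes from 38.3 ± 8.89 to 151 ± 53.4 CPM and fell in smooth muscle cells from 313 ± 25.6 to 125 ± 24.3 CPM (3.18 ± 0.31, adjusted p = 8.4e-07). The LIM protein genes Fhl1 and Lmcd1 and the glycogen-binding protein gene Stbd1 had differences of 3.40, 2.80 and 3.21 (adjusted p = 1.1e-05, 0.0009 and 4.3e-06), and Enpp2 and Ephx3, described above, 4.50 and 3.54 (adjusted p = 0.02 and 0.041). The call of Enpp2 was lost without P1 replicate 1, 2 or 3 (adjusted p = 0.17, 0.051 and 0.071) and with further limits on the smooth muscle cells (0.10). That of Ephx3 was lost without P1 replicate 1, 2 or 3 (0.12, 0.054 and 0.35), without P60 replicate 1 or 3 (0.072 and 0.055), with DESeq2 (0.091), without the limit on Pecam1 and Cldn5 (0.13) and without the filter on low counts (0.067). At P1, pericytes were below smooth muscle cells in Slc11a1, Pi15, Id4, Fhl1, Lmcd1 and Stbd1.

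Among the lists, the difference was called in 7 of 17 contractile genes, 8 of 27 vasoactive and cGMP genes, 6 of 20 basement membrane genes, 5 of 32 interstitial matrix genes, 3 of 26 cell cycle genes, 3 of 12 imprinted genes and 2 of 19 mural transcription factors, beside 4.48% of all genes. With the Pecam1 and Cldn5 limit lifted it was called in 12 of 17 contractile genes, 9 of them more negative in pericytes, and in 0 of 26 cell cycle genes. The 3 cell cycle genes were Cdk1, Ccna2 and Ube2c (2.68, 4.02 and 6.20). Without P60 replicate 1 their differences were 0.12, -0.29 and -0.36, and none was called. With at most 10% mitochondrial counts Col4a2, Col18a1, Lama4 and Fn1 missed the threshold (adjusted p = 0.15 to 0.59). With further limits on the smooth muscle cells H19 moved from -2.26 to 0.47 (adjusted p = 0.82). For Sparc the difference was 1.19 ± 0.12 (adjusted p = 1.1e-06), with smooth muscle means of 4849.8 and 3021 CPM. For Col4a1 it was -0.99 ± 0.16 (adjusted p = 0.00036). Eln, which fell in smooth muscle cells from 1443 ± 103 to 303 ± 139.8 CPM, was not called in pericytes (2.62 ± 0.34, adjusted p = 2.5e-05). Ednrb differed by 2.36 ± 0.50 (adjusted p = 0.0054, or 0.26 without P1 replicate 3) with 28.1 and 29.7 CPM in smooth muscle cells, and P2ry14 by -2.46 ± 0.47 (adjusted p = 0.002). Cox4i2 fell in pericytes and rose in smooth muscle cells from 136 to 325 CPM (-2.00 ± 0.24, adjusted p = 5.7e-06), and Smtn likewise (-3.01 ± 0.36, adjusted p = 7.6e-06). Tagln (1.47 ± 0.16), Lmod1 (2.19 ± 0.29) and Sncg (2.63 ± 0.35) had a more positive age change in pericytes, and Cspg4 a more negative one (-2.08 ± 0.36; adjusted p = 1.4e-06, 3.2e-05, 3.4e-05 and 0.00059).

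**Figure D5:**
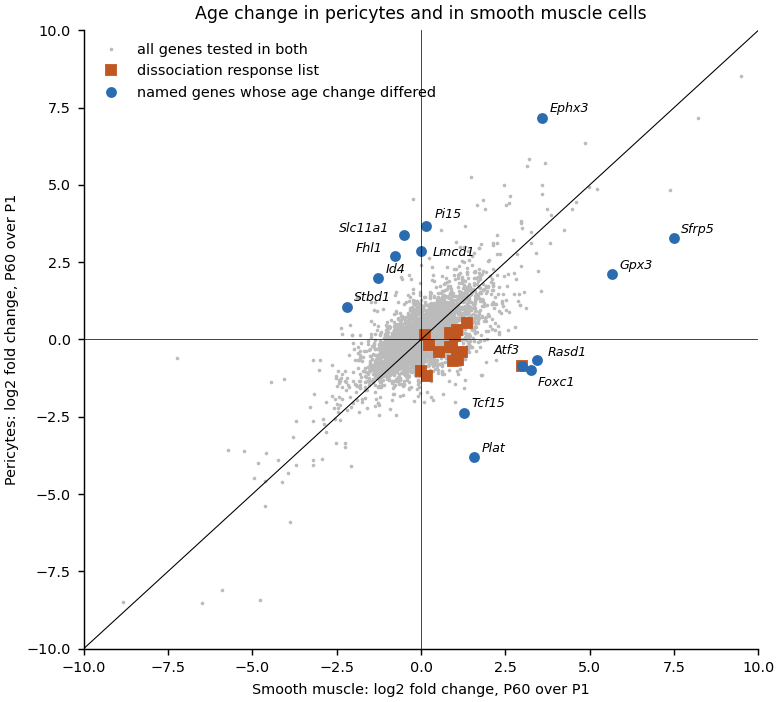
Log2 fold change from P1 to P60 in pericytes (vertical axis) against that in vascular smooth muscle cells (horizontal axis) for genes tested in both (grey), with the diagonal of equal change. Blue points are named genes whose age change differed between the classes, for which both values exist, and brown squares are the dissociation response list. Most brown squares lie right of 0 and below the diagonal, and Plat lies at -3.81 in pericytes and 1.57 in smooth muscle cells.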

How the data were processed

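Single-cell RNA-seq of mouse sciatic nerve was analysed in 6 libraries, 3 at P1 and 3 at P60, each from an independent suspension of pooled nerves. The authors deposited, per library, a matrix of UMI counts (genes by barcodes) made with Cell Ranger 2.0.2 from reads of a 3′ kit, without further normalization. The submitters' processing notes name the build GRCm38.p5, while the published methods name a human build. The gene IDs are mouse IDs, 41435 of 41605 (99.6%) of which matched GENCODE M21, whose GRCm38 coordinates are printed. Strand of counting is not given in the sources used here.

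The members and gene lists were chosen with earlier results of these data known. No doublet caller was run, and doublets were limited only by the bounds on detected genes and on markers of other classes. UMI counts were summed over the cells of a class in each library and fitted with edgeR 4.0.16 in R 4.3.3 (TMM scaling, filterByExpr, glmQLFit and glmQLFTest, Benjamini-Hochberg adjustment over all genes tested, threshold 0.05), by age within each class and, for the difference of age changes, with the library as a block and a term of class by age. Checked on data simulated with large changes in well-counted genes and a fixed dispersion, the fits recovered most of the changes put in, each with its sign. That check does not cover genes of few UMIs, smaller changes or a wider spread between libraries. Shares were compared by two-sided exact permutation tests over libraries. Cells were thinned to 1500 UMIs by random draws where depth could set a share. Wilson and exact intervals are at 95% and, like floors of 3 UMIs, cover counting error only. Other classes were set by raw UMIs. Fibroblasts had at least 10 of Dcn, Schwann cells Sox10 with at least 3 of a pair of myelin genes, and immune cells Ptprc. Fibroblasts had no Ptprc or Sox10, Schwann cells no Ptprc and immune cells no Sox10. Each class held at most 1 UMI of Pecam1 and Cldn5 together, and Schwann and immune cells fewer than 10 of Dcn. These classes had no limit on mural genes such as Rgs5, Pdgfrb, Acta2 or Myh11. Of these genes, endothelial cells were limited in Pdgfrb only. The total UMIs of a library ran from 20092957 to 29371559.

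Genes named were the markers, the 12 largest rises and falls (some genes are not reported here), the 12 genes highest in each mural class, the 8 largest differences in each direction, and members of each list. Beyond 6 a list, members were named after their values were seen. Alternatives were library-size scaling, no low count filter, DESeq2 1.42.0, a replicate block, leaving out each library, other limits on the cells, cells with at most 10% mitochondrial counts, thinned cells and equal numbers of cells. Class differences were not fitted with stricter pericyte limits, without the Dcn limit, in thinned cells or with equal cell numbers. Tables were made with Python 3.11.15, pandas 2.3.3, numpy 2.4.6 and scipy 1.17.1, and figures with matplotlib 3.10.9.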

Additional observations from a re-analysis of the deposited data

Results flagged for a closer look

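The age change differed between pericytes and vascular smooth muscle cells, by the interaction term of edgeR's quasi-likelihood test, in each of 16 genes described above. Differences are the log2 fold change from P1 to P60 in pericytes minus that in smooth muscle cells. The more positive changes in pericytes were those of Enpp2 (4.50), Slc11a1 (3.82), Pi15 (3.56), Ephx3 (3.54), Fhl1 (3.40), Stbd1 (3.21), Id4 (3.18) and Lmcd1 (2.80). The more negative ones were those of Plat (-5.43), Foxc1 (-4.21), Sfrp5 (-4.16), Rasd1 (-4.15), Nr4a2 (-3.88), Atf3 (-3.85), Tcf15 (-3.68) and Gpx3 (-3.47). Atf3 belongs to the dissociation response list and to its sum, while Nr4a2 and Rasd1 do not. The summed level of that list was higher at P60 than at P1 in all smooth muscle libraries and lower in pericytes of P60 replicates 1 and 2. The part of dissociation in these differences was not tested. Id4, Fhl1 and Stbd1 fell in smooth muscle cells and rose in pericytes, while Plat and Tcf15 fell in pericytes and rose in smooth muscle cells. The calls of Enpp2, Ephx3, Sfrp5 and Gpx3 were lost when single libraries were left out, and those of Ephx3, Sfrp5, Nr4a2 and Tcf15 without the limit on Pecam1 and Cldn5.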

How the results depend on the processing

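The differences of the pericyte share between P60 and P1 (-2.80 percentage points) and of pericytes per 100 endothelial cells (-51.9) kept their sign under every limit tried. The share difference was -2.43 under a stricter choice of pericytes (at least 6 UMIs of Rgs5, Kcnj8 and Abcc9), -4.24 without the limit on Dcn, -1.21 in cells thinned to 1500 UMIs, -1.88 over all cells and -1.14 without the limit on Pecam1 and Cldn5, an alternative added after seeing the data. In the same order and without the one over all cells, the ratio differed by -41.7, -74.8, -39.7 and -39.3. Leaving out 1 library gave -2.92 to -2.55 and -55.5 to -48.1. The share of pericytes with Mki67 or Top2a differed by -5.67, by -3.85 in cells with at most 10% mitochondrial counts and by -9.83 without thinning.

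Genes called between the ages in pericytes (1263) were 529 in thinned cells, where 1956 genes were tested, 815 with 54 pericytes per library, 896 with DESeq2, 1844 without the low count filter, 1789 without the limit on Dcn and 3262 without the limit on Pecam1 and Cldn5, of which 1036 were among the 1263. Leaving out 1 library gave 903 to 1368. In smooth muscle cells the 1482 calls became 2252 without the filter. The 310 differences between the classes were 126 with DESeq2, 439 without the filter (27.3% more positive in pericytes), 493 without the limit on Pecam1 and Cldn5 and 174 to 279 without 1 library. When smooth muscle cells had the same limits on endothelial, leukocyte, Schwann cell and fibroblast genes as pericytes, 433 of 5898 were called. Of these, 272 were among the 310. Correlations of the deviations of same-numbered libraries were 0.0272, 0.0278 and 0.0460. Differently numbered libraries were not set beside them, so these values cannot decide whether the numbers pair the libraries. With the replicate block 1157 genes were called, 1133 of them among the 1263. For the largest rises, falls and differences, 543 of 563 alternative values stayed past the threshold, 20 missed it and 0 changed sign, and the 20 belonged to the differences of Enpp2, Ephx3, Sfrp5, Gpx3, Nr4a2 and Tcf15. Of the 109 genes called in the lists, 14 missed the threshold and 14 changed sign without the limit on Pecam1 and Cldn5, 13 and 2 without that on Dcn, and 27 and 0 with DESeq2.

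With 54 to 155 pericytes per library, genes of low level were not testable, and the lower depth at P60 limits what can be said of genes that were at 0 there. The cause of the changes with the settings was not tested.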
